A study of Mus musculus with 5 samples.

Results

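CLP-derived B cells carrying the mutant IL7R that the labels name INS were compared with CLP-derived B cells carrying wild-type IL7R (WT) on 1 of the 5 arrays of the study. The array was chosen by its title, and all 23473 different mouse probes on it were examined. Both samples came from Balb/c common lymphoid progenitors (CLP) that had received a retroviral vector with GFP, were transplanted into recipients irradiated with 4 Gy, and were sorted as IgM+B220+ cells around day 60. The growth protocol in the labels speaks instead of stem cells and multipotent progenitors (HSC/MPP) for all samples. The labels of the sample itself were followed for the CLP origin. The WT cells were labelled with the red dye Cy5 and the INS cells with the green dye Cy3. The labels call the INS cells leukemic and the WT cells B cells, so the mutation and the leukemic state cannot be told apart in this comparison. The sorted cells of each sample were pooled, and the labels do not say how many recipients went into each pool. The other 4 arrays set INS against WT in a CLP culture, a KSL (stem and early progenitor) culture, T-cell leukemias made with intracellular Notch1 (T-ALL), and a KSL-derived myeloid progenitor fraction (CMP). For these the labels give days 5 to 7, 4 to 5, 30 to 40 and 40, in the same order. Comparisons between arrays therefore also differ in time.

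IL7R is the chain of the interleukin-7 receptor that binds the cytokine, and it signals through the kinases JAK1 and JAK3 to the transcription factor STAT5. In mouse bone marrow this signal carries CLP and early B-cell precursors through survival and division, and the receptor is normally lost as the cells go on to carry IgM at the surface. Activating mutations of IL7R are known from human lymphoid leukemias. IgM together with B220 marks B cells that have completed an antibody receptor, a stage past the one that depends on interleukin-7.

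The files used here pair no probe with a gene, and 0 of the 23473 probe IDs were found in the RefSeq gene table for the mouse. The level of Il7r, the markers of B cells and of other blood cells, and the labelled cell type could therefore not be checked, and no gene or pathway can be named below. Probes are given by ID, by the size of their difference and by their level in the other samples. With 1 array there is no spread between samples, so differences are descriptions without a test, and none has a replicate check. In bulk samples, fewer cells of a type and less RNA per cell cannot be told apart.

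Signals were measured on a linear scale. The median probe gave 87 in INS and 38 in WT B cells, over blank spots that averaged 49.4 and 15.1. Detected probes, whose signal exceeded the blank mean by 2 SD, made up 78.9% of the probes in INS and 80.7% in WT. Of 1102 spots without a probe, 20.4% in INS and 35.5% in WT passed the same limit, so passing it does not by itself show expression. Raw signals of different channels stand on different backgrounds. Levels are therefore also given as percentiles, the position of a probe's signal among all probes of the same sample.

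Of 19852 probes detected in at least 1 of the B cell samples, 969 (4.88%) gave at least a 2-fold higher value in INS and 788 (3.97%) at least a 2-fold lower one. Ratios are INS over WT after correction of each array for its intensity-dependent dye trend. At 4-fold, 189 probes were higher (0.952%) and 238 lower (1.2%). At 8-fold, 51 were higher (0.257%) and 89 lower (0.448%). Higher probes made up 55.2% of the 2-fold list but 36.4% of the 8-fold list. This order of higher and lower turned with the scaling. With median centring in place of the trend correction, 85.8% of the 2-fold list was higher, and the 8-fold list held 101 higher and 42 lower probes. In the authors' deposited table the 8-fold list held 255 higher and 197 lower probes. Of the 2-fold list, 636 higher probes (65.6%) and 357 lower probes (45.3%) were past the line in the main setting and in all 7 other ways of processing. Between 1.5-fold and 2-fold lay another 1209 higher and 834 lower probes.

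**Figure D1:**
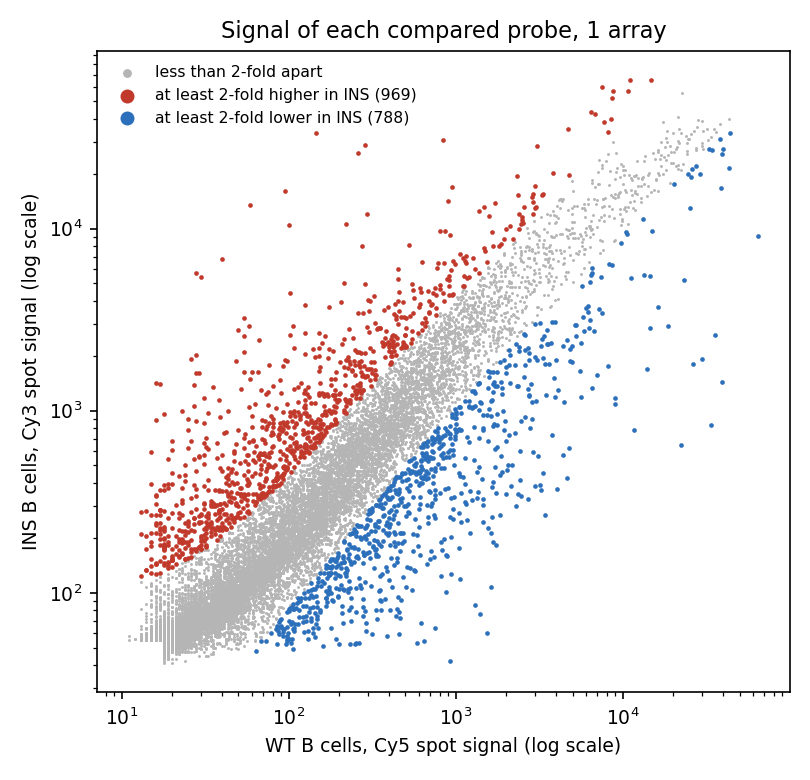
Spot signal of each of the 19852 compared probes in WT B cells (horizontal, Cy5) and INS B cells (vertical, Cy3), both on log scales. Red points are the 969 probes at least 2-fold higher in INS and blue points the 788 at least 2-fold lower, after the trend correction. Single red points stand far above the cloud at WT signals near those of undetected probes, while the blue points reach to the brightest WT signals.

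In the main setting the probes past the 2-fold line were brighter ones, which the offset of the processing favors. The compared probes were split by intensity into 4 bins of about equal size. In the dimmest bin, with median signals of 57 in INS and 20 in WT, 0 of 4968 probes reached 2-fold in either direction. In the next bin 66 probes were higher and 42 lower, and in the one above it 430 were higher and 267 lower. In the brightest bin, with median signals of 1026 and 481, 473 probes were higher and 479 lower. The SD of the log2 ratio was 0.11 in the dimmest bin and 1.00 in the brightest. The offset of 50 that is added to every signal draws the ratios of dim probes toward 0, so a 2-fold change of a dim probe need not reach the line. The bins were cut on the same signals with the offset. The 0 and the small SD of the dimmest bin were thus largely set by the offset and are no result about dim probes.

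The tail of large differences was longer in the B cells than on each of the other 4 arrays in the main setting. At 16-fold or more, 16 probes were higher and 24 lower in INS B cells, against 4 higher in each of the cultures, 1 lower in T-ALL and 0 in the CMP. At 32-fold or more, 9 were higher and 4 lower in INS B cells, against 0 on each of the others. The B cells also had the most probes at 32-fold in 6 of the 7 other settings. The exception was subtraction of the blank mean, under which the B cells had 118 such probes and the CMP 126. Between the 1st and the 99th percentile, log2 ratios ran from -2.17 to 1.97 in the B cells, from -0.95 to 1.99 in the CLP culture and from -0.35 to 0.56 in the KSL culture. They ran from -0.72 to 1.33 in T-ALL and from -1.48 to 1.70 in the CMP. In the main setting the lower side set the B cells apart from the CLP culture, where 12 probes were at least 4-fold lower against 238 here. There 199 were at least 4-fold higher against 189 here. At 16-fold or more the B cells had more lower probes than the CLP culture in every setting, but the gap was narrow after subtraction of the blank mean. That setting gave 115 lower in the B cells against 97 in the CLP culture, and 153 against 154 higher. Each setting has 1 array, so these differences between settings were not tested.

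**Figure D2:**
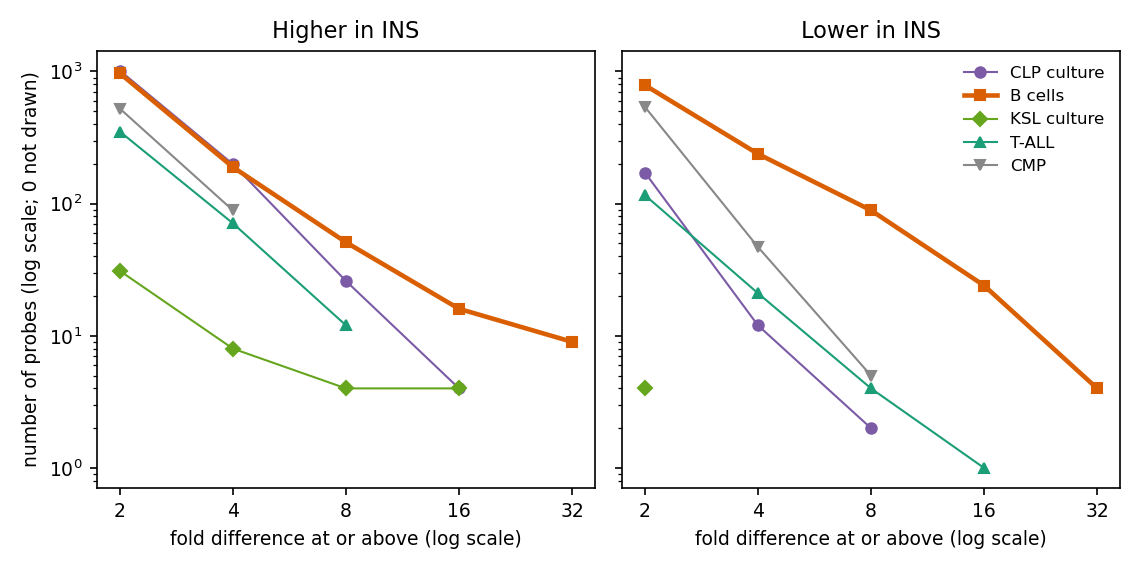
Number of probes (vertical, log scale, with 0 not drawn) at or above each fold difference (horizontal, log scale) on the 5 arrays, higher in INS on the left and lower in INS on the right. The B cells, drawn with the thick line, are the only array with probes at 32-fold or more in the main setting, 9 higher and 4 lower.

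M400011281 had the highest ratio among bright probes detected in both samples. Its signal was 33441 in INS B cells and 146 in WT B cells, an 88.9-fold difference. That placed it at percentile 99.9 of all probes in INS and at percentile 74.1 in WT. In the CLP culture the order was the other way round: its signal was 8209 in INS and 34556 in WT, at percentiles 98.7 and 99.9, with a log2 ratio of -2.00. The probe was thus among the brightest in INS B cells and in both cultured CLP samples, and WT B cells stood apart from these. In the KSL culture and in T-ALL it lay near the middle of the probes, at percentiles 53.4 to 58.4, with signals of 46 to 151 and log2 ratios of -0.07 and -0.04. In the CMP its signal was 187 in INS and 81 in WT, a log2 ratio of 0.96.

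M200001605 was second. It gave 13553 in INS B cells and 59 in WT B cells, a 67.7-fold difference. Its percentile was 99.2 in INS and 59.5 in WT. In the CLP culture it was bright in both samples, with 3882 in INS and 9747 in WT, and its log2 ratio was -1.38. It was lower in INS in the CMP as well, with 47 against 166 and a log2 ratio of -1.42, and higher in INS in T-ALL, with 229 against 23 and a log2 ratio of 1.33. In the KSL culture it had 737 in INS and 184 in WT, a log2 ratio of 0.82. Across the other settings of the processing its fold in the B cells ran from 47.0 to 192.

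M400011025 had the lowest ratio, 77.8-fold lower in INS. Its signal was 839 in INS B cells and 33934 in WT B cells, at percentiles 87.4 and 99.9. In INS B cells it was thus still clearly detected, and in WT B cells it was among the brightest probes. In the CLP culture it was higher in INS, with 2081 against 559 and a log2 ratio of 1.56. In the KSL culture it had 972 in INS and 433 in WT, a log2 ratio of 0.10 after correction. In T-ALL it had 445 and 400, which is lower in INS after correction, with a log2 ratio of -0.79. It was dimmest in the CMP, with 45 in INS and 24 in WT and a log2 ratio of 0.09.

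M200002417 followed with 645 in INS B cells and 22226 in WT B cells, which is 67.4-fold lower in INS. In the CLP culture it had 960 in INS and 242 in WT, a log2 ratio of 1.53, and in the CMP 45 and 19, a log2 ratio of 0.20. In the KSL culture it had 607 in INS and 274 in WT, a log2 ratio of 0.04. In T-ALL it had 327 and 274, a log2 ratio of -0.72, which is again lower in INS. Its log2 ratios on the other 4 arrays lay within 0.11 of those of M400011025. Whether both probes read the same transcript cannot be told without their genes, so they may not be separate findings.

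By the same rule, 12 probes were taken on each side. The 12 highest were 17.8-fold to 88.9-fold higher in INS, with INS signals of 3231 to 33441 and WT signals of 28 to 844. The 12 lowest were 25.1-fold to 77.8-fold lower, with INS signals of 60 to 2594 and WT signals of 1306 to 39411. All 24 were at percentile 96.0 or above in the brighter of the B cell samples. In the dimmer one they ranged widely, from percentile 41.4 to 93.8 in WT for the 12 highest and from 31.3 to 95.6 in INS for the 12 lowest. The 12 highest came from 8 of the 24 printing blocks of the array and the 12 lowest from 12.

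On the other 4 arrays these probes had smaller ratios. The 12 lowest had a median log2 ratio of 1.59 in the CLP culture, 0.47 in the KSL culture, 0.17 in T-ALL and -0.30 in the CMP, where 4 of 12 were at least 2-fold lower. The 12 highest had a median of -1.19 in the CLP culture, 0.03 in the KSL culture, 0.13 in T-ALL and, over 11 probes, 0.25 in the CMP.

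**Figure D3:**
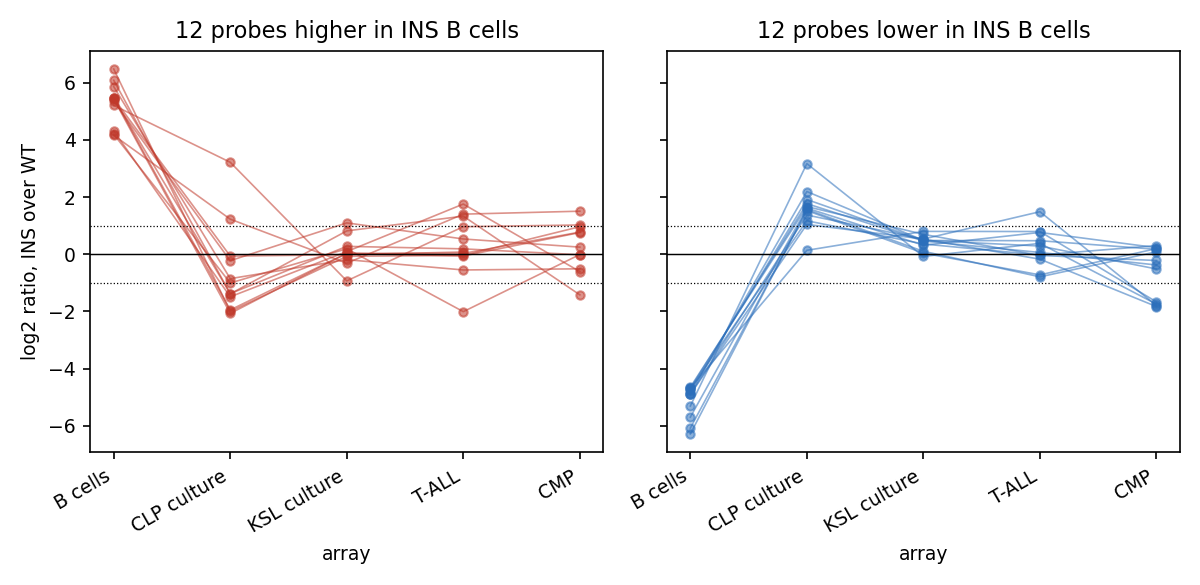
Log2 ratio of INS over WT (vertical) on each of the 5 arrays for the 12 probes highest (left, red) and the 12 lowest (right, blue) in INS B cells, 1 line per probe, with dotted lines at 2-fold. From 4.16 to 6.47 in the B cells, the red lines fall to a median of -1.19 in the CLP culture, with 7 of 12 at least 2-fold lower and 2 at least 2-fold higher there, and the blue lines lie above 0 in it.

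A further 915 probes were detected in INS B cells only and 1335 in WT B cells only, 4.61% and 6.72% of those compared. Most were close to the limit, with a median signal of 57 in INS for the first group and of 19 in WT for the second. For such probes a fold is only a bound, taken against the higher of the probe's own dim signal and the lowest detected signal of that sample. On this scale 43 of the 915 were at least 2-fold higher in INS, up to at least 15.6-fold, for a probe that gave 1426 in INS and 16 in WT. In the other direction 17 of the 1335 were at least 2-fold lower in INS, up to at least 23.0-fold, for a probe with 42 in INS and 927 in WT. As bounds, these folds cannot be ranked against those of the named probes. Another 2 probes, both among the 969 higher, were saturated in INS at 65535, so their folds are lower bounds.

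The probes apart in B cells were then followed in the 8 samples of the other arrays. The sets were cut on the B cell ratios alone, but the rules were set with earlier results of these data known. In the 8-fold higher set of 51 probes, the median percentile was 95.3 in INS B cells and 57.8 in WT B cells, which the choice fixes. Outside the B cells this set was brightest in the CLP culture, with medians of 90.7 in WT and 88.3 in INS. It was dimmer in the KSL culture (70.3 in INS and 67.6 in WT), in the CMP (68.5 and 71.1) and in T-ALL (60.6 and 47.0). Over all compared probes the medians were 56.7 to 57.9 in every one of these samples. The 8-fold sets held 0 probes of the dimmest and the next intensity bin, so all compared probes are not matched to them for brightness. The 8-fold lower set of 89 probes had a median percentile of 97.1 in WT and 75.9 in INS B cells. In no sample of the other arrays did its median exceed 71.0, the value in the INS CLP culture, and it was 63.0 in the WT CLP culture and 59.8 to 66.9 in the remaining 6.

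For each probe, the sample in which it stood highest among the 8 others was also counted. Of the 969 probes higher in INS B cells, 334 (34.5%) stood highest in the WT CLP culture, against 9.56% of all compared probes. Of the 51 probes of the 8-fold set, 25 (49.0%) did so. The INS CLP culture was the highest for 93 of the 969 (9.60%), against 9.61% of all compared probes. Of the 788 probes lower in INS B cells, 787 were measured in all 8, and 175 of these (22.2%) stood highest in the INS CLP culture and 45 (5.72%) in the WT CLP culture. Probes higher in INS B cells were thus most often brightest in cultured WT progenitors, and probes lower in INS B cells were more often brightest in the cultured INS progenitors than in the WT ones. These counts rest on percentiles of the raw signals and do not depend on how ratios were normalized, apart from the choice of the sets. All compared probes include many dim ones and are not matched to the sets for brightness. Of all compared probes, 31.6% stood highest in the INS CMP and 18.5% in the WT CMP, against 13.1% and 14.4% of the 969. The part of brightness in these shares was not tested.

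**Figure D4:**
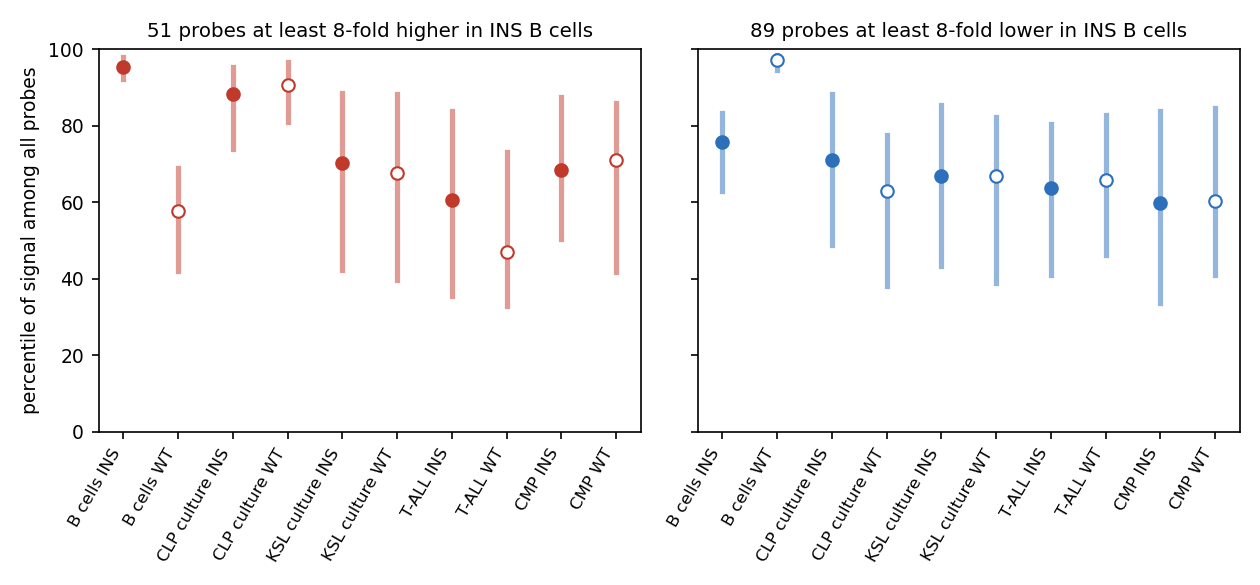
Percentile of the signal among all probes (vertical) in each of the 10 samples (horizontal) for the 51 probes at least 8-fold higher (left, red) and the 89 at least 8-fold lower (right, blue) in INS B cells. Points are medians, filled for INS and open for WT, and bars run from the 25th to the 75th percentile of the set. The red set has medians of 88.3 and 90.7 in the CLP culture samples, above those of the KSL culture, T-ALL and the CMP.

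Ratios in the CLP culture ran against those in the B cells, and the more so the larger the difference in B cells. Of the 788 lower probes, 773 were measured in the CLP culture, and 28.1% of these were at least 2-fold higher in INS there. The share was 41.3% of 230 for the 4-fold set and 46.3% (38 of 82) for the 8-fold set, against 5.04% of all probes compared in the CLP culture. Of the 8-fold lower set 0 of 82 were at least 2-fold lower in the CLP culture, where 0.854% of all probes were. The higher side was mixed. Of the 51 probes of the 8-fold higher set, 14 (27.5%) were at least 2-fold lower in INS in the CLP culture and 8 (15.7%) at least 2-fold higher. Across the 7 other ways of processing both arrays, with the sets taken anew, the share of the 8-fold lower set that was higher in the culture ran from 40% to 63.2%, and the share lower there from 0% to 9.84%. For the 8-fold higher set the share lower in the culture ran from 16.8% to 33.3%, and the share higher there from 11.9% to 20.3%. Of all probes measured on both arrays, 4.67% to 14.9% were higher in the culture and 0.719% to 11.5% lower over these 7. The values of 9.84% and 20.3% came with subtraction of the local background, where 11.5% of all probes were lower and 14.9% higher.

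In the main setting T-ALL shared probes with the B cells in both directions. Of the 8-fold higher set, 48 probes were measured in T-ALL, and 12 of these (25%) were at least 2-fold higher in INS there and 3 (6.25%) lower, against 1.81% and 0.599% of all probes compared in T-ALL. Of the 87 measured probes of the 8-fold lower set, 15 (17.2%) were at least 2-fold lower in T-ALL and 11 (12.6%) higher. The median log2 ratio of the higher set in T-ALL was 0.11 and that of the lower set 0.03, so most members of either set did not follow. With normexp and the local background, 3 of 30 probes of the higher set were higher in T-ALL and 3 lower. In that setting 2.73% of all probes measured on both arrays were higher in T-ALL and 0.384% lower. The order within the lower set turned with the processing. More of its probes were higher than lower in T-ALL with median centring, both background subtractions and the authors' deposited table (47 higher and 19 lower of 163). In the remaining settings more were lower. Over all settings the lower set was 6.15% to 28.8% higher and 9.23% to 20.8% lower, and the higher set 10% to 32.6% higher and 3.16% to 12.2% lower.

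In the KSL culture 1 of 47 measured probes of the 8-fold higher set was at least 2-fold higher and 0 lower, and 1 of 78 of the 8-fold lower set was higher, where 0.161% of all probes were higher and 0.0208% lower. In the CMP, 4 of 43 probes of the 8-fold higher set were higher and 2 lower, and of 74 of the 8-fold lower set 3 were higher and 7 lower, where 3.03% of all probes were higher and 3.12% lower. In the CMP these shares depended on the processing: over all settings the 8-fold higher set was 5.56% to 17.8% higher and 0% to 27.0% lower, and the 8-fold lower set 2.70% to 18.8% higher and 8.33% to 28.0% lower. The shares of all probes measured on both arrays moved too, from 2.76% to 15.4% higher and from 2.22% to 20.5% lower in the CMP. In the KSL culture the 8-fold higher set was 0% to 9.39% higher and 0% to 3.37% lower, and the 8-fold lower set 1.28% to 13.2% higher and 0% to 10.0% lower. All probes measured on both arrays were 0.151% to 5.67% higher and 0.0162% to 6.06% lower there over the same settings.

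Across probes, the B cell ratios had a Pearson r of -0.28 with the CLP culture (19043 probes), 0.01 with the KSL culture (18492 probes), 0.03 with T-ALL (18487 probes) and -0.0034 with the CMP (16690 probes). These describe probes that share printing positions and dyes, and probes are not replicates.

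**Figure D5:**
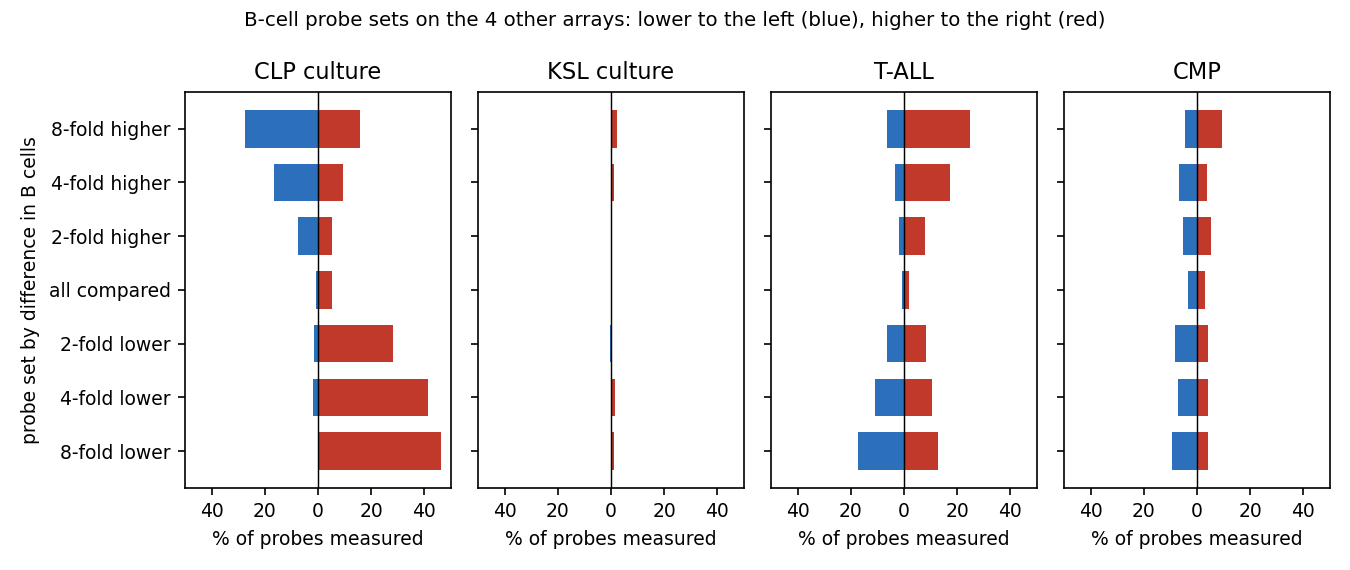
Percent of the measured probes of each B cell set (rows, by fold difference in INS B cells) that were at least 2-fold higher in INS (red, to the right) or lower (blue, to the left) on each of the other 4 arrays. In the CLP culture the red bars of the lower sets grow from 28.1% to 46.3%, and the blue bar of the 8-fold higher set reaches 27.5%.

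Of 680 lower probes that were measured on all 4 other arrays, 365 (53.7%) were less than 2-fold apart on each of them. For the higher probes this held for 613 of 846 (72.5%), and for all compared probes for 86.5% of 15977. Among the 8-fold sets it held for 13 of 41 higher and 23 of 71 lower probes. Probes far apart in B cells were thus often apart on another array too, in the same or the opposite direction. The brightness that a probe needs to reach 2-fold may differ between sets and all probes, and its part in these shares was not tested.

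Over the 24 printing blocks the median log2 ratio ran from -0.02 to 0.04, and the share of probes at least 2-fold apart from 7.21% to 11.6%. Each of the 4 negative controls had a mean log2 ratio between 0.01 and 0.03 over 24 spots. The 2 positive controls had means of -0.76 ± 0.10 and -0.97 ± 0.10 (SD over 24 spots), with signals of 13632 and 19626 in INS. On the other arrays the first of them had means of 0.93 in the CLP culture, 0.46 in the KSL culture, 0.24 in T-ALL and -0.32 in the CMP, and the second -0.70, -0.77, -0.17 and -0.55. The first thus changed sign between the B cells and the CLP culture, as many probes of the 8-fold sets did, and its part in that relation was not tested. The labels do not say what they bind. The 12 lowest probes had log2 ratios of -6.28 to -4.65. INS was read in Cy3 and WT in Cy5 with no swap, so a dye bias of single probes cannot be told apart from a difference between the cells.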

How the data were processed

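Arrays with a Cy5 and a Cy3 channel were scanned after amplification of total RNA to amino allyl aRNA, per the labels' protocols. The authors deposited an intensity per spot (median) and its local background for Cy5 (WT) and Cy3 (INS), on a linear scale, and per the file headers the normalization and background fields are empty. The deposited value table holds the authors' log2 ratios. Its scale and direction were taken from r = 0.938 with log2 of Cy3 over Cy5 less the blank mean for the B cells, its column median is -4.8e-05, and its background and filter stay unknown. Foreground medians were corrected with normexp (offset 50, no local background) and loess (span 0.3, control spots at weight 0) in limma 3.58.1 with R 4.3.3. Blank statistics trimmed 5% of 2736 blank spots at each end. Bounds and levels used Aquantile between arrays and percentiles of raw signal. The 6 probe spots with a warning mark in the B cell file were left out. Scripts were tested on simulated data.

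Named probes were the 12 highest and 12 lowest ratios among unsaturated probes that both channels detected and whose intensity reached the median of such probes. Without gene names 2 IDs per side are printed, and those seen in 1 channel only are given without ID. The 17 gene lists planned could not be evaluated. The probes, sets and rules were chosen with earlier results of these data known. Precision is limited by the number of arrays, 1 per setting.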

Additional observations from a re-analysis of the deposited data

Results flagged for a closer look

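Differences between settings were flagged where probes moved in opposite directions on arrays of different cells. With 1 array per setting, none of these differences was tested. At least 2-fold apart and opposite to the B cells were 291 probes in the CLP culture, 81 in T-ALL, 76 in the CMP and 4 in the KSL culture. The probes measured on both arrays numbered 19043, 18487, 16690 and 18492, in the same order. At least 2-fold higher in INS on both arrays were 50, 73, 46 and 3, and at least 2-fold lower on both 11, 48, 57 and 3. Only in the CLP culture did opposite probes outnumber those that moved the same way. Among the named probes, M400011281 had a log2 ratio of 6.47 in the B cells and -2.00 in the CLP culture. M200001605 had 6.08 in the B cells, -1.38 in the CLP culture and -1.42 in the CMP. M400011025 had -6.28 in the B cells and 1.56 in the CLP culture, and M200002417 had -6.08 and 1.53.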

How the results depend on the processing

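For the 24 named probes, all 168 values from the 7 alternatives that change the ratio had the direction of the main setting and were at least 2-fold, with folds from 8.72 to 337, and each of the 24 moved by over 1.5 times in at least 1 of them. Of the 969 higher and 788 lower probes, 636 and 357 passed the 2-fold line under the main setting and all of these 7. Counts of higher and lower probes moved to 2533 and 420 with median centring, 2886 and 2839 after subtraction of the local background, 2577 and 2320 after that of the blank mean, and 2252 and 1611 in the authors' deposited table. An offset of 10 gave 1460 higher. The other alternatives (loess within printing blocks, normexp with the local background, and the 3 changes of the filter) kept both counts within 1.5 times. Probes lower in INS B cells and higher in the INS CLP culture numbered 217 in the main setting. They were 640 after subtraction of the local background, 135 with normexp and the local background, and 693 after subtraction of the blank mean. They were 372 with an offset of 10 and 556 in the authors' deposited table. As shares of the lower list measured on both arrays, these were, in the same order, 28.1%, 25.8%, 20.7%, 32.3%, 32.5% and 35.9%. Of all probes measured on both, 5.10%, 14.9%, 4.67%, 11.3%, 7.59% and 9.95% were higher in the culture. The reverse gave 74 in the main setting and 455 after subtraction of the local background. It gave 369 after subtraction of the blank mean, 143 with an offset of 10 and 271 in the authors' deposited table. In the same order, these were 7.72%, 17.9%, 15.5%, 9.94% and 12.3% of the higher list. Lower in the culture were 0.903%, 11.5%, 6.24%, 1.73% and 3.60% of all probes measured on both arrays. These 2 relations were put through the alternatives after seeing the data. Subtraction adds no offset, so dim probes are not compressed. No paired analysis was possible because each setting has 1 array. Signal over background limits what can be seen among dim probes.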

Other observations

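Some pairs of named probes had nearly the same ratios on all arrays. Among the 12 probes highest in INS B cells, the fourth and the seventh differed by at most 0.12 on the log2 scale over the 5 arrays. They differed from M400011281 by at most 0.19 and 0.20 on the 4 arrays other than the B cells, but by 1.00 and 1.05 in the B cells. The median over all 66 pairs of these 12 on the other 4 arrays was 1.91. Among the 12 lowest, the tenth and the twelfth differed by at most 0.24 over the 5 arrays, and the median over their 66 pairs on the other 4 arrays was 1.44. These pairs were picked after their values were seen. The fourth and the seventh highest were printed in blocks 15 and 7, and the tenth and the twelfth lowest in blocks 23 and 18.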
